A study of Fundulus heteroclitus with 53 samples.

Results

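The V-type ATPase, lysosome and autophagy genes were described in liver of the Atlantic killifish (Fundulus heteroclitus) under reduced oxygen. Members were taken by gene symbol: subunits of the V-type ATPase, cathepsins, lysosomal membrane proteins and glycosidases, the NPC cholesterol carriers, the ULK kinases, the ATG and WIPI proteins, the ATG8 family, sqstm1, and the transcription factors tfeb and tfe3. The choice was made with earlier results of these data known. Of 34089 genes in the count tables, 74 were members. Of these, 64 passed the filter on low counts and were tested, among 13609 tested genes in all. The 10 that did not pass were atp6ap1lb, atp6v0a2a, atp6v1c2, ctsl.1, gba3, lamp1a, lamp5, map1lc3cl, ulk1b and ulk4.

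The study asked how fish from a polluted and a cleaner site respond to hypoxia. Juveniles 6 months old, bred in the laboratory from adults of New Bedford Harbor (NBH, the toxicant-resistant population) and Scorton Creek (SC, the sensitive one), were held for 6 hours at ambient oxygen (control), at 10% oxygen (mild hypoxia) or at 5% oxygen (severe hypoxia). By the paper's methods, hypoxia fish were in dishes inside gassed chambers, while control fish stayed on the benchtop. Low oxygen and the chamber thus went together. Each of the 6 groups held 5 fish, and each library was the liver of 1 fish. The fish of a population came from a few parents, so that the spread given is that among these fish.

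The V-type ATPase is a proton pump that acidifies the lysosome. Its peripheral V1 sector hydrolyses ATP and its membrane V0 sector carries the protons. Macroautophagy delivers cytoplasm to the lysosome: the ULK complex starts it, ATG and WIPI proteins build the autophagosome membrane, and ATG8 proteins (LC3 and GABARAP) are joined to its lipid and bind cargo receptors such as sqstm1 (p62). In the acid lysosome, cathepsins and glycosidases break the cargo down, and in mammals TFEB and TFE3 switch on many of these genes. In liver the pathway is known for supplying nutrients in fasting and for clearing damaged mitochondria.

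Total counts ran from 4955114 to 23849931 per fish, with low group medians in SC mild hypoxia (7393074) and NBH control (8179471). NBH severe hypoxia replicate 5 was the smallest library, and calls of that group that this fish changes are given with and without it. Levels below are CPM (a gene's counts relative to its library's total, on a fixed scale) after TMM scaling, and they are compared between groups of fish but not between genes. Differences are log2 fold changes ± SE. A gene is called when the adjusted p of edgeR's quasi-likelihood test is under 0.05 over all 13609 genes. Of the liver's own markers, 6 hepatocyte genes summed to between 42554 and 77611 CPM in every fish. Most of that sum was tfa, with group means of 30125 to 45990 CPM. Hepatocyte calls relative to control in NBH mild, NBH severe, SC mild and SC severe hypoxia were 2, 0, 1 and 2 higher. Lower calls were 0, 0, 0 and 1. Markers of other cells differed by type. The sum was lower under hypoxia for stellate cells, over the 7 stellate or fibroblast genes in the counts. It was 21.9 to 46.8 CPM in NBH mild and 22.6 to 50.8 CPM in NBH severe hypoxia, against 105 to 164 CPM in NBH control. In SC fish the same sum was 20.8 to 45.1 CPM in mild and 17.6 to 27.4 CPM in severe hypoxia, against 103 to 259 CPM in control. The 8 leukocyte markers in the counts summed to 4.91 to 20.8 CPM in SC severe hypoxia, against 19.01 to 32.98 CPM in SC control. In NBH fish these 8 summed to 22.6 to 49.7 CPM in control, 9.38 to 39.1 CPM in mild and 13.1 to 31.0 CPM in severe hypoxia. Of the 6 tested, 5 were called lower in SC severe hypoxia, 1 in SC mild hypoxia and 0 in either NBH hypoxia group. The median log2 fold change of the 6 was -0.79, -0.58, -0.90 and -1.58 in NBH mild, NBH severe, SC mild and SC severe hypoxia. Erythrocyte markers were called lower in 1, 1, 2 and 3 of 3, and skeletal muscle markers in 2, 2, 0 and 5 of 5, in NBH mild, NBH severe, SC mild and SC severe hypoxia. Of 6 endothelial markers 1 was called lower in each and 1 higher in all but NBH severe hypoxia, and of 3 exocrine pancreas markers 0 were called. In bulk liver, fewer cells of a type and less RNA per cell cannot be told apart, and the part of these cells in the values below was not tested.

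Of 17 V-type ATPase genes, 7 to 9 were called higher in NBH mild hypoxia and in both SC hypoxia groups and 1 in NBH severe hypoxia, and autophagy genes were called in both directions. At least 1 of the 4 comparisons with control called 34 of the 64 tested members, and none of them was called in opposite directions. In NBH fish 22 members were called in mild hypoxia (14 higher, 8 lower), a share of 34.4%, beside 21% of all tested genes. In NBH severe hypoxia 9 were called (4 higher, 5 lower), a share of 14.1% beside 14%. In SC fish 20 members were called in mild hypoxia (15 higher, 5 lower), a share of 31.2% beside 13.6%. In SC severe hypoxia 28 were called (19 higher, 9 lower), a share of 43.8% beside 28.7%. Without NBH severe hypoxia replicate 5, the NBH severe count of members was 20, up from 9. The share of all genes called in that fit was 17.5% (9.44% higher, 8.09% lower), up from 14%. The member share of 14.1% above, near that of all genes, is thus that with this fish included. The SC mild count was 12 when SC control replicate 3 was left out and 13 when mild hypoxia replicate 4 was, and the NBH mild count was 14 without NBH mild hypoxia replicate 2. The share of all tested genes called in these fits was not counted, so that the falls are not shown to be particular to the members.

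The split between higher and lower rested on the scaling. Without TMM factors the median gene itself shifted upward by 0.34, 0.47, 0.28 and 0.38 in NBH mild, NBH severe, SC mild and SC severe hypoxia, and the members called were then 29 higher and 4 lower, 26 and 3, 21 and 2, and 27 and 5 in the same order. Calls of all tested genes without TMM factors were also mostly upward. They were 3507 higher and 634 lower, 4216 and 328, 2560 and 484, and 4394 and 891 in that order. Changes are therefore relative to the typical gene of each liver.

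**Figure D1:**
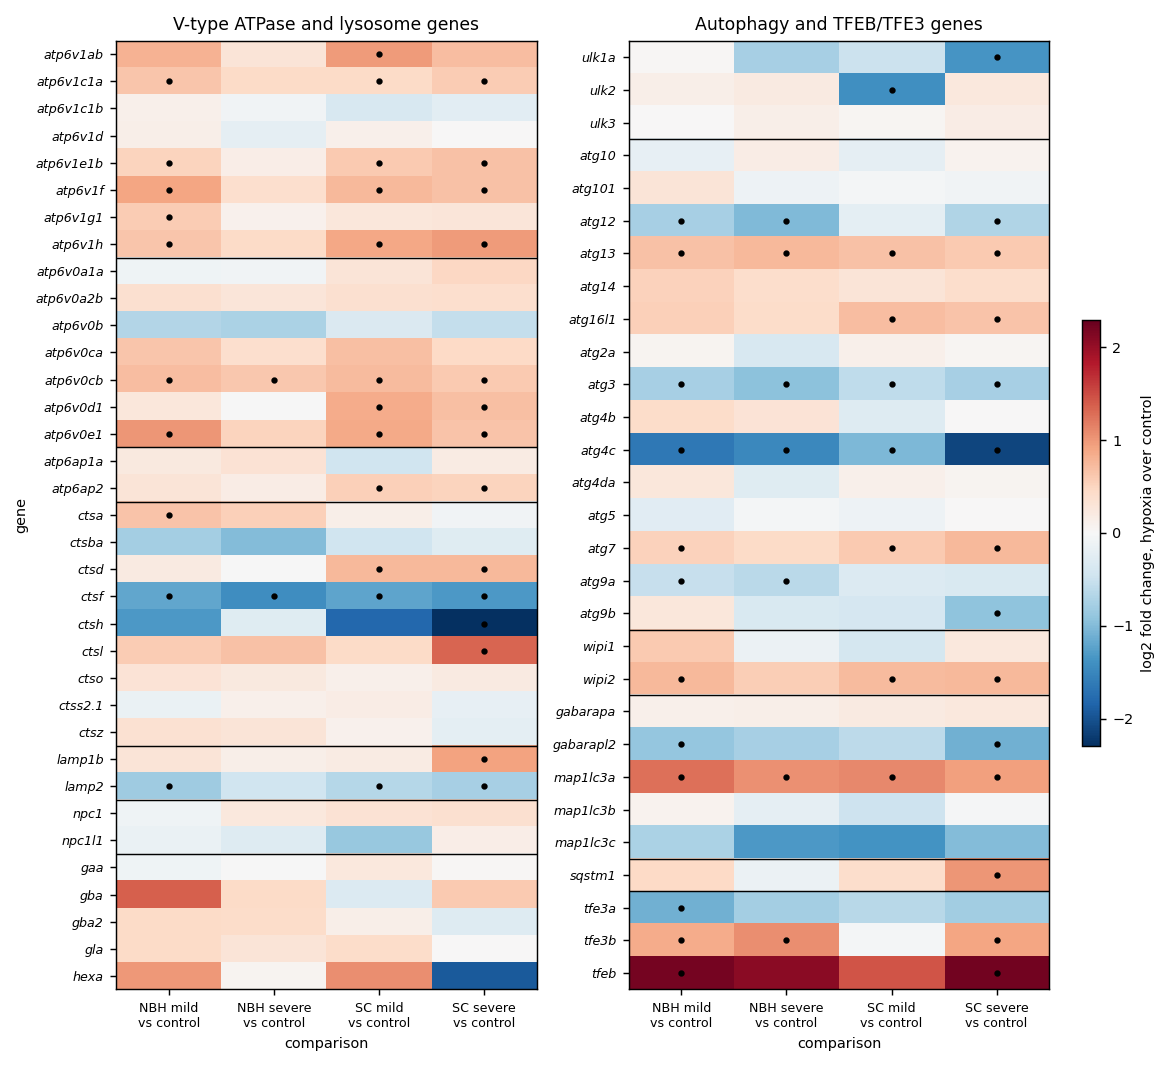
Log2 fold change of hypoxia over control (colour, red for higher and blue for lower) of the 64 tested members (rows, grouped by family) in the 4 comparisons (columns), with a black dot where the gene was called. Red fills most of the V-type ATPase rows at the top left, while red and blue alternate among the autophagy genes on the right.

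All calls of V-type ATPase genes relative to control were upward in edgeR with all fish. Of 17 tested, 7 were called higher in NBH mild, 1 in NBH severe, 9 in SC mild hypoxia and 8 in severe hypoxia of SC fish, and 0 were called lower in any of the 4. At an unadjusted p under 0.05 that edgeR count of lower genes was 1, 1, 0 and 1, and DESeq2 called 1, 1, 0 and 0 lower. The share called higher was 41.2%, 5.88%, 52.9% and 47.1%, beside 11%, 7.45%, 7.25% and 15.2% of all tested genes. Values above 0 were held by 15, 12, 14 and 15 of the 17 genes in the same order, and the median log2 fold change of the 17 was 0.51, 0.28, 0.54 and 0.52, beside 0.02, 0.04, 0.00 and 0.01 over all genes. Called genes rose by 1.36-fold to 2.01-fold. Without NBH severe hypoxia replicate 5, NBH severe hypoxia had 5 calls, of which atp6v0cb, atp6v0e1, atp6v1c1a and atp6v1f were higher. The gene atp6v0b, a proteolipid subunit of the membrane ring, was lower (-0.73 with all 5 fish, -0.91 without that fish). Without that fish 9.44% of all genes were called higher and 8.09% lower.

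**Figure D2:**
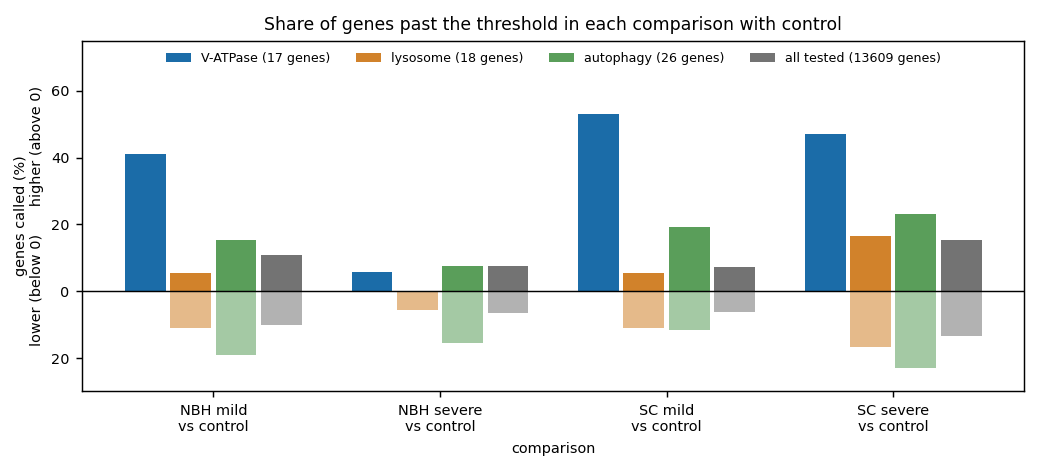
Percent of tested genes called higher (above 0) and lower (below 0, paler) in each comparison with control, for 17 V-type ATPase, 18 lysosome and 26 autophagy genes and for all 13609 tested genes. The V-type ATPase bars reach 52.9% above 0 in SC mild hypoxia and have no part below 0.

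In the V1 sector, 5 of 8 tested genes were called higher in NBH mild, 0 in NBH severe, 5 in SC mild hypoxia and 4 in severe hypoxia of SC fish. These were 62.5%, 0%, 62.5% and 50% of the sector, beside 11%, 7.45%, 7.25% and 15.2% of all tested genes called higher. Without NBH severe hypoxia replicate 5, atp6v1c1a and atp6v1f were called higher in NBH severe hypoxia, beside 9.44% of all tested genes. The gene atp6v1e1b (chr17:16661983-16673659), a subunit of the peripheral stalk, had in NBH fish 8.87, 11.8, 12.9, 10.7 and 11.1 CPM in control, 13.1, 16.1, 16.6, 16.7 and 16.1 CPM in mild hypoxia, and 14.2, 10.02, 11.4, 14.2 and 11.9 CPM in severe hypoxia. In SC fish it had 9.75, 10.5, 10.8, 10.3 and 8.27 CPM in control, 13.4, 15.2, 16.4, 15.9 and 14.7 CPM in mild hypoxia, and 14.7, 16.2, 13.9, 16.5 and 18.3 CPM in severe hypoxia. Every mild hypoxia fish stood above every control fish of its population, and so did every SC severe hypoxia fish, while NBH severe hypoxia overlapped its control. Its log2 fold change was 0.51 ± 0.13 in NBH mild hypoxia and 0.16 ± 0.13 in NBH severe hypoxia (edgeR adjusted p = 0.00625 and 0.421). In SC fish it was 0.60 ± 0.13 in mild and 0.68 ± 0.13 in severe hypoxia (edgeR adjusted p = 0.00233 and 0.000307).

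The subunit atp6v1f (chr17:20439472-20441577), part of the rotating central shaft, rose by 0.90 in NBH mild, 0.75 in SC mild hypoxia and 0.67 in severe hypoxia of SC fish. It lay at 9.24 to 16.4 CPM in NBH mild hypoxia, against 5.44 to 8.76 CPM in NBH control. SC livers lay at 6.78 to 10.9 CPM in control, 11.5 to 18.2 CPM in mild and 12.1 to 15.6 CPM in severe hypoxia, with no overlap between either hypoxia group and control. The regulatory subunit atp6v1h (chr6:23124143-23169435) rose by 0.64 in NBH mild, 0.88 in SC mild hypoxia and 0.97 in severe hypoxia of SC fish. Also called were atp6v1c1a, which links the sectors, in the same 3 comparisons, atp6v1ab, the catalytic subunit, in SC mild hypoxia (0.98), and the stalk subunit atp6v1g1 in NBH mild hypoxia (0.58). Another shaft subunit, atp6v1d, the V1 gene with the most counts, ran from -0.21 in NBH severe to 0.14 in NBH mild hypoxia and was called in none of the 4. When single fish were left out, the SC mild call of atp6v1c1a was lost in 8 of 10 fits (without mild replicate 1, 2, 3 or 4 or control replicate 1, 2, 3 or 5, at 0.38 to 0.49), and that of atp6v1ab in 8 of 10 fits (without mild replicate 1, 2, 3 or 4 or control replicate 1, 2, 3 or 5, at 0.85 to 0.999). In NBH mild hypoxia, atp6v1h lost its call in 5 of 10 fits (without mild replicate 2, 4 or 5 or control replicate 3 or 5, at 0.54 to 0.62) and atp6v1g1 in 4 of 10 fits (without mild replicate 2 or 4 or control replicate 2 or 5, at 0.48 to 0.55).

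In the V0 sector, 2 of 7 were called higher in NBH mild, 1 in NBH severe, 3 in SC mild hypoxia and 3 in severe hypoxia of SC fish. These were 28.6%, 14.3%, 42.9% and 42.9% of the sector, beside 11%, 7.45%, 7.25% and 15.2% of all tested genes called higher. Without NBH severe hypoxia replicate 5, atp6v0e1 was also called higher in NBH severe hypoxia and atp6v0b lower. The proteolipid gene atp6v0cb, on an unplaced scaffold, was the only V-type ATPase gene called in all 4. In NBH fish it had 23.7, 21.8, 20.3, 25.3 and 23.8 CPM in control, 37.3, 41.8, 30.1, 40.1 and 38.00 CPM in mild hypoxia, and 39.00, 30.4, 32.6, 29.8 and 44.5 CPM in severe hypoxia. SC livers had 28.8, 20.9, 23.1, 30.3 and 24.5 CPM in control, 38.3, 46.6, 50.3, 40.9 and 35.9 CPM in mild hypoxia, and 41.9, 41.9, 33.1, 36.9 and 40.5 CPM in severe hypoxia. Hypoxia and control did not overlap in either population. Its log2 fold change was 0.70 ± 0.14 in NBH mild and 0.62 ± 0.14 in NBH severe hypoxia (edgeR adjusted p = 0.0011 and 0.0046), and 0.73 ± 0.14 in SC mild hypoxia and 0.61 ± 0.14 in severe hypoxia of SC fish (edgeR adjusted p = 0.000989 and 0.00191).

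The stalk-binding subunit atp6v0d1 (chr4:4697137-4706252) was called in SC fish, where it rose by 0.85 in mild and 0.68 in severe hypoxia. The SC values were 11.8, 17.7, 11.2, 11.3 and 7.504 CPM in control, 22.6, 16.4, 24.5, 22.1 and 22.2 CPM in mild hypoxia, and 18.7, 19.3, 21.2, 17.6 and 18.97 CPM in severe hypoxia. SC control replicate 2 stood above the other control fish and SC mild hypoxia replicate 2 below the other mild fish, and SC severe hypoxia replicate 4 lay just under that control fish; elsewhere the groups did not overlap. In NBH fish its log2 fold change was 0.26 ± 0.16 in mild and -0.01 ± 0.16 in severe hypoxia, and neither was called. The difference between the populations' responses to severe hypoxia was -0.70 ± 0.23 (NBH minus SC) and was not called either (edgeR adjusted p = 0.266). The small membrane subunit atp6v0e1 rose by 1.01 in NBH mild, 0.87 in SC mild hypoxia and 0.66 in severe hypoxia of SC fish. Of the accessory proteins, atp6ap2, the prorenin receptor, rose by 0.54 in SC mild hypoxia and 0.52 in severe hypoxia of SC fish, and atp6ap1a was called in none of the 4. Of these, atp6v0e1 lost its SC severe call in 7 of 10 fits (without severe replicate 2, 4 or 5 or control replicate 1, 2, 3 or 5, at 0.58 to 0.64) and atp6ap2 its SC mild call in 3 of 10 fits (without mild replicate 3 or control replicate 2 or 3, at 0.44 to 0.48).

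**Figure D3:**
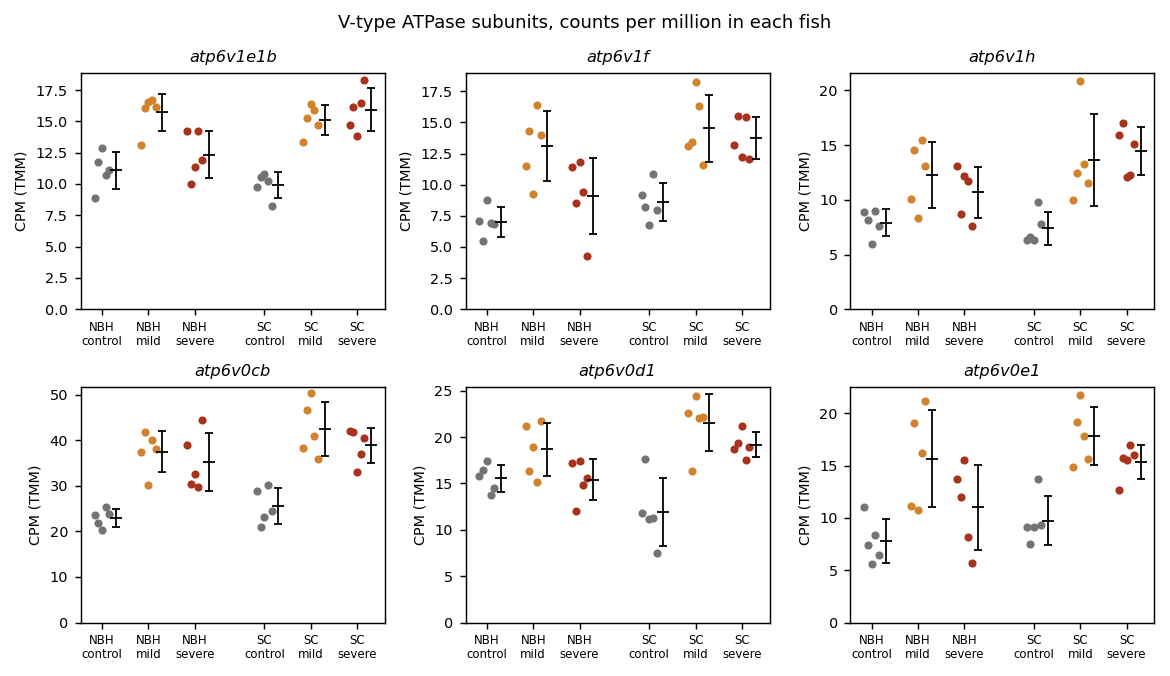
CPM (vertical axis, from 0) of 6 V-type ATPase subunits in each of the 30 fish (points), by population and oxygen level, with the mean and SD of each group in black. In atp6v0cb every hypoxia fish lies above every control fish of its population, while in atp6v0d1 the NBH groups overlap.

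Across the 30 fish, after the group means were taken off, the mean pairwise correlation was 0.27 among the 8 V1 genes and 0.01 among the 7 V0 genes. It was 0.02 among all 64 members and 0.01 among all tested genes. These values are descriptions, since the genes of a fish share its library.

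Lysosome genes were called in both directions: of 18 tested, 1 was called higher and 2 lower in NBH mild, 0 and 1 in NBH severe, 1 and 2 in SC mild, and 3 and 3 in SC severe hypoxia. In either direction these were 16.7%, 5.56%, 16.7% and 33.3%, beside 21%, 14%, 13.6% and 28.7% of all tested genes. With 18 genes, 1 call is 5.56% of them. Without NBH severe hypoxia replicate 5, ctsa and lamp2 were also called in NBH severe hypoxia, beside 17.5% of all tested genes. No difference between the populations is read from these shares. The 18 were grouped by symbol, and among them gba2 and npc1l1 act mainly outside the lysosome. The cathepsin F gene ctsf (chr23:32250538-32261344), a cysteine protease and the cathepsin with the most counts, fell in all 4. NBH livers had 7693, 6677, 5801, 9539 and 7116 CPM in control, 3279, 2370.3, 5181, 2415 and 2866 CPM in mild hypoxia, and 1949, 4716, 2697, 1758 and 2526 CPM in severe hypoxia. Among SC fish the levels were 5535, 4139.8, 5270.2, 5950.3 and 4373 CPM in control, 1827, 2301, 2005, 2161 and 2687 CPM in mild hypoxia, and 1599, 2208, 1604, 2812 and 1899.5 CPM in severe hypoxia. All 20 hypoxia fish stood below all control fish of their population. It fell by 1.19 ± 0.24 in NBH mild and 1.43 ± 0.24 in NBH severe hypoxia (edgeR adjusted p = 0.00117 and 0.000347), and by 1.20 ± 0.24 in SC mild hypoxia and 1.32 ± 0.24 in severe hypoxia of SC fish (edgeR adjusted p = 0.00136 and 0.000224).

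Other cathepsins took other courses. The aspartic protease ctsd (chr4:3525412-3537015) rose by 0.75 in SC mild hypoxia and 0.74 in severe hypoxia of SC fish, while in NBH fish its values were 0.21 in mild and -0.00 in severe hypoxia, not called. The cysteine protease ctsl (chr12:27473855-27508106) rose by 1.33 in SC severe hypoxia. The serine carboxypeptidase ctsa, the protective protein of the lysosomal sialidase complex, rose by 0.65 in NBH mild hypoxia, a call lost in 1 of 10 fits (without control replicate 2, at 0.59). Its NBH severe value was 0.55, not called, and 0.59 without replicate 5 (edgeR adjusted p = 0.0409). The aminopeptidase ctsh (chr2:17985054-17990502) fell by 2.30 in SC severe hypoxia, from few counts: it lay at 0.0739 to 1.198 CPM there, against 1.696 to 6.03 CPM in SC control, and the call was lost without SC control replicate 4, the highest of the controls (-1.80, edgeR adjusted p = 0.0586). The cathepsins ctsba, ctso, ctss2.1 and ctsz were called in none of the 4.

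Of the lysosome-associated membrane proteins, lamp2 (chr23:4239834-4257010), the receptor of chaperone-mediated autophagy, fell by 0.82 in NBH mild, 0.65 in SC mild hypoxia and 0.77 in severe hypoxia of SC fish. In NBH severe hypoxia it had 128, 109, 84.8, 130.5 and 229 CPM, against 190.3, 182, 207, 167 and 193 CPM in NBH control. Replicate 5 alone stood above the controls: the log2 fold change was -0.46 with it, not called, and -0.73 without it (edgeR adjusted p = 0.00619). The SC mild call of lamp2 was lost in 5 of 10 fits (without mild replicate 1, 3 or 4 or control replicate 1 or 3, at -0.63 to -0.58). The other membrane protein, lamp1b, rose in SC severe hypoxia by 0.92. None of the 5 tested glycosidases was called (gaa, gba, gba2, gla and hexa), nor were the cholesterol carriers npc1 and npc1l1, though hexa and gba varied widely with SEs of 0.78 to 1.07.

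Autophagy genes were called in both directions: of 26 tested, 4 were higher and 5 lower in NBH mild, 2 and 4 in NBH severe, 5 and 3 in SC mild, and 6 and 6 in SC severe hypoxia. Beside these, the shares of all tested genes called higher were 11%, 7.45%, 7.25% and 15.2%. Those called lower were 10%, 6.51%, 6.36% and 13.5%, and those called in either direction 21%, 14%, 13.6% and 28.7%. The median over the 26 was 0.12, -0.12, -0.16 and 0.05. Without NBH severe hypoxia replicate 5, atg7, atg14 and wipi2 were also called higher in NBH severe hypoxia, and gabarapl2 lower. In that fit 9.44% of all tested genes were called higher and 8.09% lower.

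The LC3 gene map1lc3a (chr20:274056-282285) rose in all 4. In NBH fish it had 32.1, 33.00, 31.5, 35.3 and 39.5 CPM in control, 85.1, 109, 49.4, 90.4 and 77.04 CPM in mild hypoxia, and 75.7, 51.9, 90.3, 70.02 and 65.5 CPM in severe hypoxia. In SC fish it had 36.3, 34.6, 33.02, 34.2 and 39.2 CPM in control, 74.7, 60.7, 92.6, 87.2 and 66.9 CPM in mild hypoxia, and 69.1, 78.2, 65.8, 63.9 and 62.9 CPM in severe hypoxia. All hypoxia fish stood above all control fish of their population, and the controls of the 2 populations lay within the same narrow band. Its log2 fold change was 1.26 ± 0.17 in NBH mild and 1.04 ± 0.17 in NBH severe hypoxia (edgeR adjusted p = 3.43e-05 and 0.000236), and 1.11 ± 0.17 in SC mild hypoxia and 0.94 ± 0.17 in severe hypoxia of SC fish (edgeR adjusted p = 0.000111 and 0.000184).

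Its relatives in the ATG8 family did not follow it. The gene gabarapl2 (chr2:31786093-31801947) fell by 0.89 in NBH mild and 1.10 in SC severe hypoxia, and it had -0.60 in SC mild hypoxia, not called. Its NBH mild call was lost in 7 of 10 fits (without mild replicate 1, 2, 4 or 5 or control replicate 1, 2 or 3, at -0.96 to -0.78). Its NBH severe value was -0.77, not called, and -0.93 without replicate 5 (edgeR adjusted p = 0.0467). The genes gabarapa, map1lc3b and map1lc3c were called in none of the 4. Of these, gabarapa, the family member with the most counts, ran from 0.11 in NBH mild to 0.25 in SC severe hypoxia.

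The enzymes that prepare and attach ATG8 proteins were split. ATG3, the E2-like enzyme that joins ATG8 to lipid, is encoded by atg3 (chr24:21870879-21880164). In NBH fish atg3 had 81.5, 82.7, 82.97, 64.00 and 82.9 CPM in control, 43.8, 45.04, 51.4, 48.3 and 42.97 CPM in mild hypoxia, and 37.1, 48.1, 46.7, 35.01 and 39.03 CPM in severe hypoxia. SC livers had 76.96, 86.7, 77.5, 71.7 and 73.2 CPM in control, 39.1, 56.5, 59.5, 52.4 and 51.2 CPM in mild hypoxia, and 41.98, 48.95, 36.2, 60.4 and 40.5 CPM in severe hypoxia. Hypoxia and control did not overlap in either population. It fell by 0.77 ± 0.14 in NBH mild and 0.94 ± 0.14 in NBH severe hypoxia (edgeR adjusted p = 0.000582 and 0.000143), and by 0.58 ± 0.14 in SC mild hypoxia and 0.76 ± 0.14 in severe hypoxia of SC fish (edgeR adjusted p = 0.00651 and 0.000283).

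The protease gene atg4c (chr9:5759238-5790033), which trims ATG8 proteins, fell in all 4 as well. NBH livers had 17.97, 15.8, 18.8, 12.2 and 14.5 CPM in control, 4.88, 3.83, 9.88, 2.296 and 4.41 CPM in mild hypoxia, and 3.16, 5.42, 3.76, 8.51 and 7.98 CPM in severe hypoxia. The SC values were 14.1, 10.6, 13.8, 9.395 and 16.5 CPM in control, 5.98, 7.81, 4.33, 4.75 and 8.39 CPM in mild hypoxia, and 2.85, 2.11, 3.64, 2.67 and 3.56 CPM in severe hypoxia. Every hypoxia fish lay below every control fish of its population, with SC severe hypoxia the lowest group. It fell by 1.65 ± 0.30 in NBH mild and 1.48 ± 0.30 in NBH severe hypoxia (edgeR adjusted p = 0.00053 and 0.00184), and by 1.04 ± 0.30 in SC mild hypoxia and 2.12 ± 0.30 in severe hypoxia of SC fish (edgeR adjusted p = 0.0202 and 1.58e-05). The other ATG4 genes, atg4b and atg4da, were called in none of the 4.

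In contrast, atg7 (chr20:16561305-16657541), the E1-like enzyme that activates ATG8 and ATG12, rose by 0.53 in NBH mild, 0.60 in SC mild hypoxia and 0.74 in severe hypoxia of SC fish. In NBH severe hypoxia it was 0.44, not called, with replicate 5 at 3.90 CPM below every control fish, and 0.61 without that fish (edgeR adjusted p = 0.00827). The atg7 call was lost in 8 of 10 fits (without mild replicate 1, 2, 4 or 5 or control replicate 1, 2, 3 or 5, at 0.49 to 0.55) for NBH mild hypoxia and in 6 of 10 fits (without mild replicate 1, 2 or 4 or control replicate 1, 2 or 3, at 0.53 to 0.61) for SC mild hypoxia. The conjugated protein atg12 fell by 0.76 in NBH mild, 1.01 in NBH severe and 0.68 in SC severe hypoxia. Its partners differed: atg16l1, which sets the site of conjugation, rose by 0.70 in SC mild hypoxia and 0.65 in severe hypoxia of SC fish, and atg5 and the E2-like atg10 were called in none of the 4. For atg12 the NBH mild call was lost in 3 of 10 fits (without mild replicate 1 or 5 or control replicate 1, at -0.70 to -0.65) and the SC severe call in 7 of 10 fits (without severe replicate 1, 2, 3 or 4 or control replicate 2, 3 or 5, at -0.67 to -0.60). For atg16l1 the SC mild call was lost in 4 of 10 fits (without mild replicate 1 or 4 or control replicate 2 or 3, at 0.60 to 0.69) and the SC severe call in 2 of 10 fits (without severe replicate 2 or control replicate 2, at 0.55 to 0.56).

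Upstream of conjugation, atg13 (chr24:12378186-12389163), the regulatory partner of the ULK kinases, rose in all 4. In NBH fish it had 13.2, 16.5, 11.7, 16.04 and 14.6 CPM in control, 22.2, 23.4, 15.1, 27.8 and 26.3 CPM in mild hypoxia, and 23.03, 26.6, 31.7, 24.8 and 14.7 CPM in severe hypoxia. Among SC fish the levels were 12.6, 16.2, 10.4, 14.6 and 11.2 CPM in control, 22.8, 18.9, 18.7, 23.3 and 19.7 CPM in mild hypoxia, and 20.7, 21.7, 19.6, 22.8 and 13.6 CPM in severe hypoxia. NBH mild hypoxia replicate 3 and severe hypoxia replicate 5 in each population lay among the controls, and the remaining hypoxia fish stood above them. Its log2 fold change was 0.67 ± 0.18 in NBH mild and 0.75 ± 0.19 in NBH severe hypoxia, and 0.67 ± 0.19 in SC mild hypoxia and 0.60 ± 0.18 in severe hypoxia of SC fish. Without SC control replicate 3 both SC calls were lost (0.60 and 0.53, edgeR adjusted p = 0.0527 and 0.05005).

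The phosphoinositide-binding wipi2 (chr16:27321318-27332986), which recruits the conjugation machinery, rose by 0.75 in NBH mild, 0.72 in SC mild hypoxia and 0.74 in severe hypoxia of SC fish, with no overlap in any of the 3. The NBH severe value was 0.56, not called, and 0.67 without replicate 5 (edgeR adjusted p = 0.0207). The same omission gave a call of atg14, at 0.64 (edgeR adjusted p = 0.0297), a subunit of the lipid kinase complex that starts the membrane. The lipid scramblase genes went the other way: atg9a fell by 0.54 in NBH mild and 0.62 in NBH severe hypoxia, and atg9b by 0.92 in SC severe hypoxia. The atg9a calls rested largely on NBH control replicate 3: the values were -0.31 in mild and -0.39 in severe hypoxia without it. The mild call was lost in 7 of 10 fits (without mild replicate 1, 2, 4 or 5 or control replicate 1, 2 or 3, at -0.59 to -0.31) and the severe call in 5 of 10 fits (without severe replicate 1, 2 or 4 or control replicate 2 or 3, at -0.63 to -0.39). The initiating kinase gene ulk1a fell by 1.35 in SC severe hypoxia, at 2.59 to 5.098 CPM against 5.79 to 14.2 CPM in SC control. The kinase ulk3 was called in none of the 4.

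**Figure D4:**
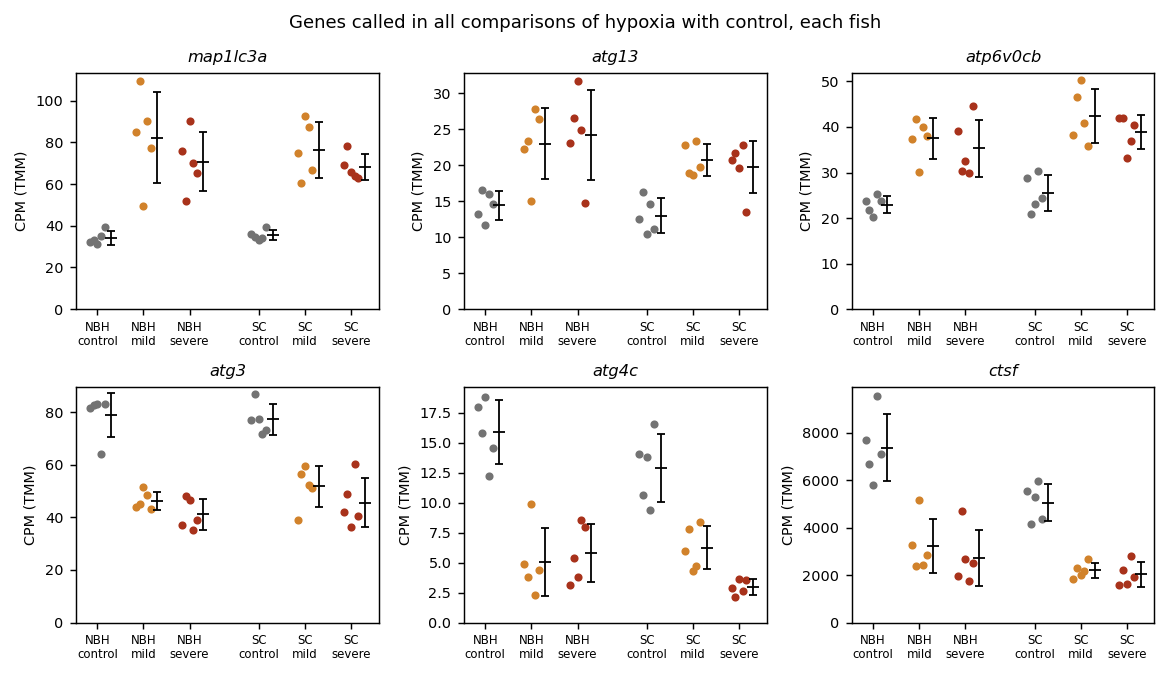
CPM (vertical axis, from 0) of the 6 members called in all 4 comparisons with control, in each of the 30 fish (points), with the mean and SD of each group in black. The genes map1lc3a, atg13 and atp6v0cb are higher under hypoxia and atg3, atg4c and ctsf lower, in both populations.

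These 6 genes called in all 4 comparisons were 9.38% of the tested members, beside 4.05% of all tested genes. Both hypoxia groups of a population share its 5 control fish, so that the comparisons within a population are not independent. When each fish was left out in turn, all 4 calls of map1lc3a, atp6v0cb, atg3 and ctsf held in every fit. The SC mild call of atg4c was lost in 3 of 10 fits, those that left out replicate 3 (-0.94) or 4 (-0.96) of the SC fish in mild hypoxia or SC control replicate 5 (-0.94).

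The transcription factors were called in some comparisons. The gene tfe3b (chr20:37104466-37114949) rose by 0.86 in NBH mild, 1.07 in NBH severe and 0.91 in SC severe hypoxia. Its paralogue tfe3a fell by 1.10 in NBH mild hypoxia, and its value was below 0 in the other 3. The NBH mild calls were lost in 7 of 10 fits (without mild replicate 1, 2 or 4 or control replicate 2, 3, 4 or 5, at 0.72 to 0.90) for tfe3b and in 6 of 10 fits (without mild replicate 1, 2, 3 or 4 or control replicate 1 or 3, at -1.15 to -0.90) for tfe3a. The other calls of tfe3b were lost in 1 of 10 fits (without severe replicate 4, at 0.87) for NBH severe hypoxia and in 1 of 10 fits (without control replicate 2, at 0.81) for SC severe hypoxia. The gene tfeb had very few counts: 0, 1, 0, 1 and 1 reads in NBH control, 12, 7, 4, 6 and 4 reads in NBH mild, and 6, 9, 13, 3 and 0 reads in NBH severe hypoxia. In SC fish it had 1, 2, 3, 1 and 1 reads in control, 14, 2, 2, 4 and 2 reads in mild, and 27, 20, 18, 13 and 9 reads in severe hypoxia. It was called higher in NBH mild and SC severe hypoxia, in which every fish had a higher CPM than every control fish, and at these counts no size is given. Control fish had at most 3 reads, so tfeb passed the filter on low counts only through hypoxia fish. Its calls and the lack of overlap are therefore not independent of that filter. The NBH mild call was lost in 5 of 10 fits, those without mild replicate 1 or 2 or control replicate 1, 3 or 5, and in NBH severe hypoxia tfeb was called by edgeR without replicate 5 but not with it (edgeR adjusted p = 0.0217).

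Few members differed between severe and mild hypoxia. In SC fish 4 were called (3 higher, 1 lower), a share of 6.25% beside 2.90% of all tested genes, of which 2.02% were higher and 0.882% lower. They were the kinase gene ulk2 (1.65 ± 0.44), ctsl (0.89 ± 0.24), lamp1b (0.73 ± 0.18) and atg4c (-1.08 ± 0.30), with edgeR adjusted p of 0.0351, 0.0391, 0.0226 and 0.049. In the 10 fits that left out 1 of these fish, the call was kept in 2 for ulk2, 4 for ctsl, 6 for lamp1b and 1 for atg4c. Of the severe hypoxia fish, leaving out replicate 2 gave a count of 0, replicate 1 a count of 1, and replicate 3 or 4 a count of 2. Of the mild hypoxia fish, leaving out replicate 2 or 5 gave 0, and replicate 1, 3 or 4 gave 2. For these fits too the share of all tested genes called was not counted. In NBH fish 0 members were called by edgeR and 0 by DESeq2, beside 1.95% of all tested genes. At an unadjusted p under 0.05 there were 12 of 64, all lower in severe hypoxia, beside 17.5% of all tested genes in either direction. The directions among all tested genes at that p were not counted, so that this direction is not shown to be particular to the members.

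The gene ulk2 (chr18:130984-161009) stood apart in SC fish. There it had 145, 74.1, 154, 64.2 and 112 CPM in control, 33.9, 35.8, 48.1, 45.2 and 44.5 CPM in mild hypoxia, and 77.4, 109, 190.2, 158 and 117 CPM in severe hypoxia. All 5 mild hypoxia fish were below every fish of the other 2 SC groups, and severe hypoxia overlapped control. It fell by 1.40 ± 0.44 in SC mild hypoxia relative to control (edgeR adjusted p = 0.0303), and was 0.25 ± 0.43 in SC severe hypoxia. NBH livers had 42.1, 48.6, 47.8, 31.3 and 60.4 CPM in control, 105, 24.9, 38.5, 48.2 and 35.8 CPM in mild hypoxia, and 16.4, 18.8, 29.1, 65.01 and 139 CPM in severe hypoxia, with the hypoxia groups spread on both sides of the control. The SC mild hypoxia call relative to control was lost in 7 of the 10 fits that left out 1 fish (-1.46 to -1.25), those without mild hypoxia replicate 1, 2, 3 or 4 or control replicate 1, 3 or 5. The call between severe and mild hypoxia was kept in 2 of the 10 fits that left out 1 fish of those groups, with log2 fold changes of 1.49 to 1.78.

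Between populations, 0 members were called in control fish by edgeR and 1 by DESeq2, beside 1.62% of all tested genes by edgeR. At an unadjusted p under 0.05 edgeR gave 10 of 64, beside 14.05% of all tested genes. In mild hypoxia 0 were called by edgeR and 1 by DESeq2, beside 1.25% of all tested genes by edgeR, with 0.691% higher and 0.558% lower. The edgeR count at an unadjusted p under 0.05 was 5 of 64, beside 14.6% of all tested genes. In severe hypoxia 4 were called: ctsh was higher in NBH, and lamp1b, ctsl and sqstm1 were lower in NBH. This was a share of 6.25%, beside 7.32% of all tested genes (3.90% higher, 3.42% lower in NBH), so that the members were called about as often as other genes. The leukocyte markers differed in the same comparison, with 3 of the 6 tested called higher in NBH. The 8 in the counts summed to 13.1 to 31.01 CPM in NBH severe and 4.91 to 20.8 CPM in SC severe hypoxia. Their part in the values of the lysosomal genes was not tested.

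The lysosomal membrane gene lamp1b (chr7:20654067-20663758) had 6.76, 5.295, 6.77, 6.96 and 5.499 CPM in NBH severe hypoxia, against 14.3, 13.3, 10.2, 8.79 and 10.7 CPM in SC severe hypoxia. The groups did not overlap, and the difference was -0.87 ± 0.18 (NBH over SC, edgeR adjusted p = 0.00452). It was called in each of the 10 fits that left out 1 of these fish. Relative to control it was 0.13 in NBH severe hypoxia, not called, and 0.92 in SC severe hypoxia (edgeR adjusted p = 0.000516).

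The cargo receptor gene sqstm1 (chr23:15451701-15456037) had 27.5, 33.3, 35.1, 20.6 and 29.98 CPM in NBH severe hypoxia, against 88.3, 73.7, 41.9, 39.5 and 35.9 CPM in SC severe hypoxia. Replicates 1 and 2 of the SC group were well above the other 3, and all 5 lay above the NBH fish. The difference was -0.93 ± 0.24 (NBH over SC, edgeR adjusted p = 0.0185). The call was lost when replicate 4 of the NBH fish (-0.83) or replicate 1 (-0.70) or 2 (-0.81) of the SC fish was left out. Relative to control, sqstm1 was -0.13 in NBH severe hypoxia, not called, and rose by 1.02 in SC severe hypoxia (edgeR adjusted p = 0.0027).

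The cathepsin gene ctsl had 448, 328, 366, 285 and 331 CPM in NBH severe hypoxia, against 902, 1019, 385, 499 and 581 CPM in SC severe hypoxia. The groups overlapped at SC severe hypoxia replicate 3, and the difference was -0.94 ± 0.24 (NBH over SC, edgeR adjusted p = 0.0172). Without SC severe hypoxia replicate 1 or 2 the call was lost (-0.82 and -0.75). The gene ctsh had 1.78, 0.702, 1.17, 6.46 and 6.39 CPM in NBH severe hypoxia, against 0.502, 0.0739, 1.198, 0.777 and 0.341 CPM in SC severe hypoxia. Replicates 4 and 5 of NBH carried the difference of 2.46 ± 0.69 (edgeR adjusted p = 0.0276), and the call was lost without either of them (1.99 and 2.13) and without SC severe hypoxia replicate 1, 2 or 5 (2.43, 2.17 and 2.34). Without NBH severe hypoxia replicate 5 the calls were lamp1b, ctsl, sqstm1, atp6v0a2b (-0.71) and ulk2 (-2.01), all lower in NBH, beside 6.19% of all tested genes.

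**Figure D5:**
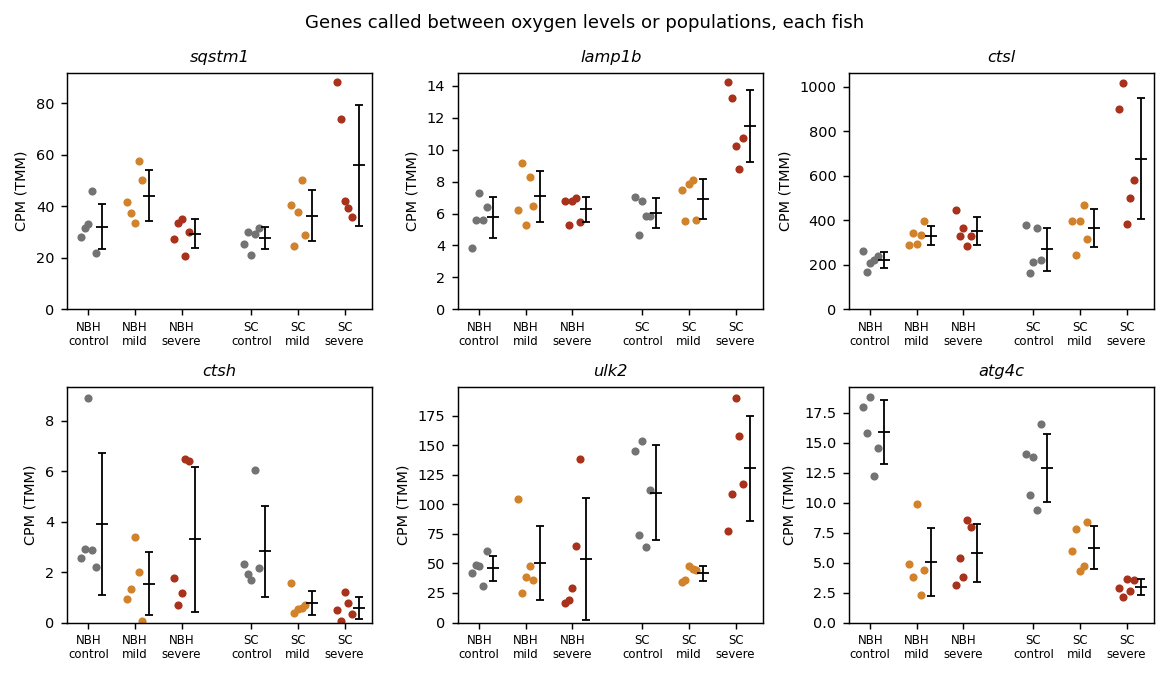
CPM (vertical axis, from 0) of 6 members called between severe and mild hypoxia or between populations, in each of the 30 fish (points), with the mean and SD of each group in black. In lamp1b and sqstm1 all 5 SC severe hypoxia fish lie above all 5 NBH severe hypoxia fish.

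The responses of the populations, compared directly as NBH minus SC, gave 0 called members in mild and 0 in severe hypoxia by edgeR, with 6 and 7 at an unadjusted p under 0.05 and 0 by DESeq2 in both. Of all tested genes 0% and 0.00735% were called by edgeR, and 7.69% and 10.96% had an unadjusted p under 0.05. For severe hypoxia the member with the smallest adjusted p was sqstm1, at -1.15 ± 0.34 (edgeR adjusted p = 0.203). A gene called in one population and not in the other is thus not shown to respond differently.

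Genes that work with the members were counted from a list of 134 tested genes of the same pathways. In NBH mild hypoxia 20 were called higher and 12 lower, in NBH severe 8 and 7, in SC mild 15 and 3, and in SC severe hypoxia 27 and 14. These were 23.9%, 11.2%, 13.4% and 30.6% of the list, close to the 21%, 14%, 13.6% and 28.7% of all tested genes. The 3 genes of each class with the smallest adjusted p are named here, and they were not refitted with fish left out. The gene pik3c3, the lipid kinase whose product WIPI proteins bind, rose in all 4 (0.96, 0.73, 0.86 and 0.71 in NBH mild, NBH severe, SC mild and SC severe hypoxia). So did glb1, the lysosomal beta-galactosidase (1.18, 1.24, 1.23 and 1.06 in the same order). The membrane protein vmp1, needed to form autophagosomes, rose by 0.65 in NBH severe, 0.93 in SC mild hypoxia and 1.07 in severe hypoxia of SC fish, and uvrag, a partner of that kinase, by 1.14 in NBH severe hypoxia. The progranulin gene grna, listed with the hydrolases though not itself one, fell by 1.12 in SC mild hypoxia and 1.61 in severe hypoxia of SC fish. The thioesterase gene ppt2b was called lower in NBH severe hypoxia, at 0 to 0.128 CPM against 0 to 1.604 CPM in NBH control, where few counts give no reliable size.

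Among receptors, ncoa4, which delivers ferritin to the lysosome, rose by 0.65 in NBH mild, 0.92 in SC mild hypoxia and 0.99 in severe hypoxia of SC fish. The mitochondrial receptor genes differed: bnip3la fell by 0.38 in NBH mild, 0.54 in NBH severe and 0.69 in SC severe hypoxia, while bnip3lb rose by 1.58 in SC severe hypoxia. Of the mTORC1 pathway, which holds autophagy back when nutrients are plentiful, flcn rose by 0.66 in NBH mild and 0.76 in SC severe hypoxia, and rptor, the raptor subunit, by 0.94 in SC mild hypoxia and 0.85 in severe hypoxia of SC fish, while akt1s1, an inhibitor of the complex, fell by 0.65 in SC severe hypoxia. The lysosomal amino acid transporter gene slc36a1 rose by 1.27 in SC mild hypoxia and 1.92 in severe hypoxia of SC fish, and the membrane protein gene tmem192 by 0.72 in NBH mild, 0.81 in SC mild hypoxia and 0.81 in severe hypoxia of SC fish. The lysosomal channel gene mcoln1b fell by 1.46 in NBH mild hypoxia. The fusion gene vps33a rose by 1.02 in NBH mild, 0.83 in NBH severe and 0.64 in SC severe hypoxia. Of the sorting genes, igf2r, the receptor that carries hydrolases to the lysosome, rose by 0.72 in NBH mild, 0.78 in SC mild hypoxia and 0.55 in severe hypoxia of SC fish, and ap3d1, of the AP-3 adaptor, fell by 0.58 in NBH mild and 0.46 in NBH severe hypoxia. Of the partners of the V-type ATPase, rnasekb rose by 0.69 in NBH mild and 0.58 in SC severe hypoxia, and dmxl2, a rabconnectin that helps the sectors assemble, by 0.91 in SC severe hypoxia. The gene tcirg1b, whose mammalian relative encodes a further V0 subunit, rose by 0.70 in SC mild hypoxia.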

How the data were processed

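RNA-seq was made from 30 livers, 5 fish in each of 6 groups, grouped by the sample titles. Gene counts were used as deposited by the authors and not normalized; they trimmed strand-specific single-end reads with Trimmomatic, aligned them with STAR and counted them with HTSeq-count. Read sequences, amplified duplicates and methylation libraries were not analysed here. Coordinates are those of the RefSeq gene table of the MU-UCD_Fhet_4.1 assembly, in which all 74 members were found, and no gene sequence was used here.

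The filter was filterByExpr with the 6 groups as its design (minimum count 10, minimum total 15), and it left 13609 genes with 99.91% of the counts. A model with a mean for each group was fitted to TMM-scaled counts in edgeR 4.0.16 (legacy quasi-likelihood, R 4.3.3). A call is a Benjamini-Hochberg adjusted p under 0.05 over all tested genes of a comparison, and each SE was taken from the log2 fold change and its F value. There were 11 comparisons: 4 of hypoxia with control, severe with mild hypoxia, NBH with SC, and the differences of their responses. All p-values measure spread among these fish. The method was tested on simulated data.

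The study left out 1 NBH severe hypoxia fish without naming it, so all 30 are used. Members and lists were chosen with earlier results of these data known. Named with values were, per family, the 3 members with the smallest adjusted p and that with the most counts, members called between oxygen levels or populations, and the ATG8 genes and regulators. The remaining members named, among them atg5, atg9a, atg9b, atg10, atg12, atg13, atg14, atg16l1, atp6v0b, atp6v1ab, atp6v1c1a, atp6v1g1 and ctsa, were named after their values were seen. From the list of 134 related genes, the 3 of each class with the smallest adjusted p are named. Alternatives were DESeq2 1.42.0, RLE factors, no TMM factors, no filter, a replicate block, the total count as a covariate, only the groups compared, and each fish left out in turn.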

Additional observations from a re-analysis of the deposited data

Results flagged for a closer look

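Of 222 groups of 5 fish, 13 held a fish that stood far from the other 4 by Dixon's criterion, or 5.86%, where chance alone marks about 1 in 20 groups. Of these, 8 were low values. They were atg3 in NBH control replicate 4 at 64.0 CPM (next fish 81.5 CPM), atg7 in NBH mild hypoxia replicate 3 at 6.45 CPM (9.40 CPM), and wipi2 in the same fish at 22.6 CPM (31.7 CPM). The V-type ATPase genes with a low fish were atp6v0d1 in SC mild hypoxia replicate 2 at 16.4 CPM (22.1 CPM), atp6v0e1 in SC severe hypoxia replicate 1 at 12.6 CPM (15.6 CPM) and atp6v1e1b in NBH mild hypoxia replicate 1 at 13.1 CPM (16.1 CPM). The glucosylceramidase gene gba2 was low in SC severe hypoxia replicate 4 at 1.60 CPM (2.72 CPM) and in SC control replicate 5 at 2.14 CPM (3.21 CPM).

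The other 5 were high values. The protease gene ctsh was high in SC control replicate 4 at 6.03 CPM (next fish 2.31 CPM) and in NBH control replicate 3 at 8.91 CPM (2.90 CPM). In that NBH fish hexa was high too, at 3.71 CPM (0.391 CPM). The LC3 gene map1lc3c stood at 15.4 CPM in SC control replicate 2 (3.98 CPM), and tfe3a at 15.5 CPM in SC mild hypoxia replicate 2 (6.49 CPM).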

How the results depend on the processing

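No call of a member changed direction under any alternative. Of 87 calls, 86 were kept by DESeq2, 85 with RLE factors, 73 without TMM factors, 74 without the low-count filter, 57 with the total count as a covariate and 73 with only the groups compared, and 53 were kept in every fit that left out 1 fish. Fish with the same number deviated together in no consistent way (correlations of -0.24 to 0.22), so that the numbers do not pair the samples, and a replicate block kept 82 calls, with 19, 9, 19 and 28 members called in NBH mild, NBH severe, SC mild and SC severe hypoxia. Counts that moved by over 1.5 times were as follows. In NBH severe hypoxia 14 members were called by DESeq2, 29 without TMM factors and 5 with only the groups compared, of which 3, 10 and 0 were V-type ATPase genes. Without TMM factors the V-type ATPase count was 12 in NBH mild and 13 in SC severe hypoxia, where calls of all genes were also mostly upward. With the total count as a covariate 8 members, 4 of them V-type ATPase genes, were called in NBH mild hypoxia, and 1 member between SC severe and mild hypoxia. With only the groups compared this last count was 2, and between populations it was 1 in controls, 1 in mild hypoxia and 1 in severe hypoxia. DESeq2 called 1 in controls and 1 in mild hypoxia, and without TMM factors 1 was called in controls. The cause was not tested. With 1 fish left out, the counts of members ran from 14 to 25 in NBH mild, 8 to 20 in NBH severe, 12 to 21 in SC mild and 24 to 28 in SC severe hypoxia, and those of V-type ATPase genes from 5 to 9, 1 to 5, 6 to 10 and 7 to 9. The counts of members ran from 0 to 4 between SC severe and mild hypoxia, 0 to 1 between NBH severe and mild hypoxia, 0 to 1 between populations in controls, 0 to 1 in mild and 1 to 6 in severe hypoxia, and were 0 for both differences of response. Except without NBH severe hypoxia replicate 5, the shares of all tested genes called in these fits were not counted. Depth and group go together in part, since group medians of total counts differ, and few counts limit tfeb, ctsh and hexa.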
